A study of Mus musculus with 4 samples.

Results

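The genes described here encode 9 components of insulin-like growth factor (IGF), phosphoinositide 3-kinase (PI3K), Akt and p38 signalling in mouse heart: *Pik3ca*, *Pik3r1*, *Akt1*, *Akt2*, *Gsk3b*, *Mapk14*, *Mtor*, *Igf1* and *Igf1r*. They were taken by symbol, as every probe whose gene name in the scanner files was one of these, which gave 23 of 56605 probes and 9 of 20719 genes. Of these 23 probes, 19 had a P flag (a signal well above background, with no flag against the spot) on all 4 arrays. The other 4 probes, 1 of *Gsk3b*, 1 of *Igf1* and 2 of *Igf1r*, were not well above background on any array, so all 9 genes were measured by at least 1 probe.

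Hearts of female *C57BL/6J* mice aged 6 weeks were measured 3 h after the last of 2 once-daily intraperitoneal treatments. The control mice received normal saline (NS), and the others cyclophosphamide (CY, an alkylating anticancer drug) at 400 mg/kg, acrolein (a reactive aldehyde released when CY is metabolised) at 5 mg/kg, or N-acetylcysteine (NAC, an antioxidant) at 200 mg/kg before CY at 400 mg/kg. Total RNA of a piece of heart was hybridised to 1 single-colour Agilent array per condition, and although the series text speaks of 3 independent studies, no difference below has a replicate check or a p-value. Whether RNA of several mice was pooled on an array is not given in the sources used here.

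IGF-1 binds its receptor at the cell surface and, through adaptor proteins, activates PI3K, whose lipid product recruits the kinase Akt. Akt inhibits the kinase Gsk3 and the FoxO transcription factors and activates mTOR, and in heart muscle this chain is known for its part in growth, glucose use and cell survival. The p38 kinases form a separate branch of MAP kinase signalling that responds to cellular stress.

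The probes that the main result turns on are shown first, because their letters share a feature that the choice of genes did not use. The only *Pik3ca* probe, made for transcript NM_008839, lies at chr3:32364747-32364806 (mm9, the build of the array files). It is followed by the probes of the 3 genes whose signals over the 4 arrays were most like those of *Pik3ca*, and by the brightest *Igf1r* and *Akt1* probes for contrast. Each line gives 30 bases of a 60-base probe, 5′ to 3′ as printed in the array files. Capitals mark the longest run of GAA units, which in the NAP072206-1 probe goes on past the bases shown.
Pik3ca: agaaaGAAGAAGAAGAAtggaatctggttg
NAP072206-1: aaGAAGAAGAAGAAGAAGAAGAAGAAGAAG
Trpm1: aagaaaaaGAAGAAGAAGAAagaggaagag
Pinx1: aaGAAGAAGAAGAAagtttccagataactt
Igf1r: ttgtaacaatctattcacaagcctcctgta
Akt1: gccattgctgcaccatgtcgttttttacaa
The *Pik3ca*, *Trpm1* and *Pinx1* probes held 4 GAA units in a row, the NAP072206-1 probe held 15, and the *Igf1r* and *Akt1* probes held none.

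*Pik3ca*, which encodes the alpha catalytic subunit of PI3K, was the only 1 of the 9 genes called changed in any comparison. Its normalised signal, in the arbitrary units of the scanner, was 3778 on the NS array and 1194 on the CY array, and it was 4504 with acrolein and 1145 with NAC + CY. Both arrays of CY-treated hearts were thus low and nearly equal, and both other arrays were high. The log2 ratio to NS was -1.66 for CY (3.16-fold lower, Z-score -3.88) and -1.72 for NAC + CY (3.30-fold lower, Z-score -4.64). For acrolein it was 0.25 with a Z-score of 1.95, which did not meet the criteria, and between NAC + CY and CY it was -0.06. The Z-score is the distance of a log2 ratio from the mean of the 200 probes nearest in signal, in units of their SD, and a change was called where the Z-score reached 2 and the ratio 1.5, or where they were no higher than -2 and 0.66. In the comparison of CY with NS 6.21% of 19705 genes were called and 2.82% were called lower, and for NAC + CY against NS these shares were 5.28% and 2.60%. In a piece of whole heart, fewer cells of a type and less RNA per cell cannot be told apart.

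**Figure D1:**
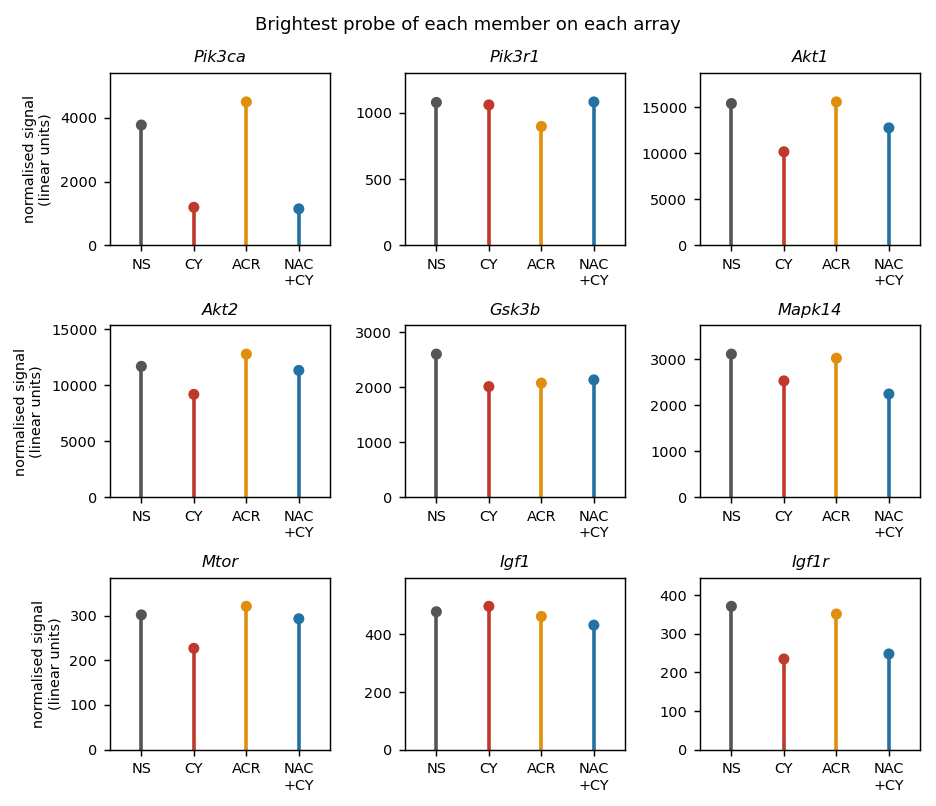
Normalised signal (linear arbitrary units, vertical axes from 0, each panel with its own scale) of the brightest probe of each of the 9 genes on the NS, CY, acrolein (ACR) and NAC + CY arrays, 1 point per array with no error bar because there is 1 array per condition. *Pik3ca* stands at 1194 and 1145 on the CY and NAC + CY arrays against 3778 on NS, and the other genes vary by less.

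The fall of the *Pik3ca* signal was shared by probes that have the same repeat and are made for other transcripts. The motif GAAGAAGAAGAA, chosen after the values of the *Pik3ca* probe were seen, was held by 31 of 56605 probes (0.0548%). Its reverse complement TTCTTCTTCTTC was held by 7 (0.0124%). All 31 probes were P-flagged, and they stood under 30 different names, such as *Gcm1*, *Rhox8*, *Gab3*, *Ermn*, *Notch1* and *Trpm1*. Of the 30 other than *Pik3ca*, 26 (86.7%) were called lower with CY, where 2.56% of all probes were. With NAC + CY 27 of the 30 were called lower, where 2.28% of all probes were, and 26 were called lower in both. With acrolein none was called lower and 1 was called higher, beside 1.24% and 1.05% of all probes.

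The size of the fall was much the same in these 30 probes as in the *Pik3ca* probe. Their median log2 ratio was -1.63 with CY (from -2.03 to 0.14), 0.19 with acrolein (from -0.11 to 0.73) and -1.71 with NAC + CY (from -2.18 to 0.16). The *Pik3ca* values of -1.66, 0.25 and -1.72 lay inside each of these ranges and close to each median. The 4 probes not called lower with CY were those of *Dnase2a* (log2 ratio -0.03), *Mettl7a2* (0.14), *Sec61b* (-0.21) and *Pdia5* (-0.73). All 14 probes with 7 or more GAA units were called lower in both comparisons. Among 85 probes with 3 units in a row, the median with CY was -0.24 and 15 were called lower, and among 1290 with 2 units it was 0.00. On the other strand, none of 5 probes with 4 or more TTC units was called with CY.

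**Figure D2:**
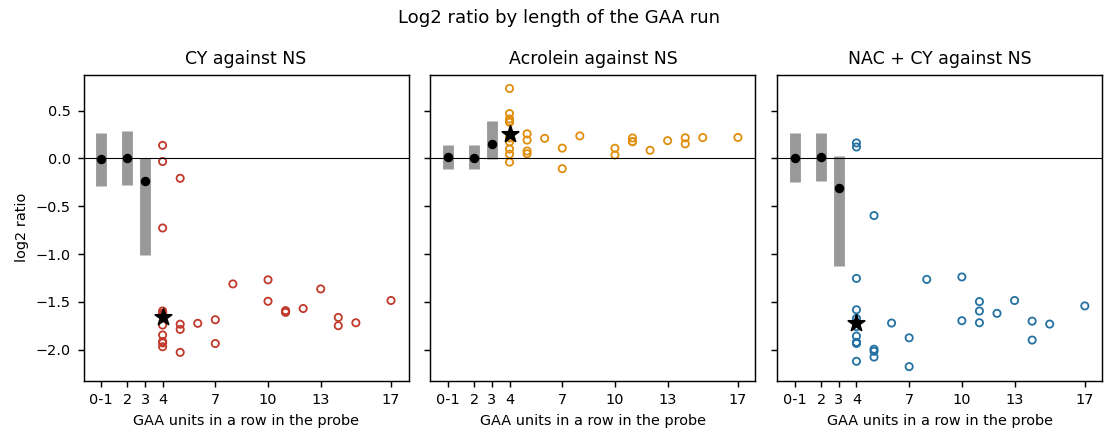
Log2 ratio (vertical axis) against the number of GAA units in a row in the probe (horizontal axis) for the 3 comparisons with NS. Open circles are single probes with 4 or more units, the star is the *Pik3ca* probe, and black points with grey bars are the median and the interquartile range of all probes with 0 or 1, 2, or 3 units; the star lies among the open circles, near -1.7 with CY and NAC + CY and just above 0 with acrolein.

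The 3 genes most like *Pik3ca*, by Euclidean distance over the 4 mean-centred log2 signals among 17843 genes well above background on all arrays, were NAP072206-1 (distance 0.04), *Trpm1* (0.09) and *Pinx1* (0.10), whose sequences are shown above. NAP072206-1, a probe target without a gene symbol, had signals of 36455, 11084, 42388 and 10980 on the NS, CY, acrolein and NAC + CY arrays. *Trpm1*, an ion channel gene of melanocytes and retina, had 2010, 666, 2337 and 594. *Pinx1*, which encodes a telomerase inhibitor, had 4976, 1602, 6502 and 1561. Each was low on the same 2 arrays as *Pik3ca*. None of the other 22 probes of the 9 genes held more than 2 GAA units in a row, and *Pik3ca* has no second probe, so its transcript was not measured here without the repeat. With the probes that hold the repeat left out, none of the 8 genes then measured was called in any of the 4 comparisons. This was fixed in advance, because those 8 genes were not called before and none of their probes holds the repeat. The part of the repeat in the *Pik3ca* value was not tested.

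The other PI3K subunit among the 9 genes, the regulatory subunit gene *Pik3r1*, was nearly level. Its normalised signal was 1078 on NS, 1060 with CY, 897 with acrolein and 1082 with NAC + CY. The log2 ratios to NS were -0.02 with CY, -0.27 with acrolein (Z-score -1.72) and 0.01 with NAC + CY. Only the acrolein array stood apart, and its ratio did not meet the criteria.

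*Akt1* and *Akt2*, the main Akt kinases of heart, were read by 3 probes each. The brightest *Akt1* probe gave 15408 on NS, 10161 with CY, 15583 with acrolein and 12760 with NAC + CY. The CY array was the lowest and the NAC + CY array lay between it and the other 2, with log2 ratios to NS of -0.60 with CY (Z-score -1.16) and -0.27 with NAC + CY. The ratio of 0.66 with CY met its own criterion and the Z-score did not. A ratio past the criterion was common on this array, where 22.4% of all genes met it. The other *Akt1* probes differed from each other, with log2 ratios of -0.68 and 0.15 with CY. The brightest *Akt2* probe gave 11700, 9200, 12792 and 11338 on NS, CY, acrolein and NAC + CY. Its log2 ratio with CY was -0.35, while its other probes gave -0.06 and -0.03. In the comparison of NAC + CY with CY the 3 *Akt2* probes agreed closely, at 0.30, 0.30 and 0.38, and none met the criteria.

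*Gsk3b*, a kinase that Akt inhibits, was lowest on the CY array in each of its 3 measured probes. The brightest gave 2600 on NS, 2011 with CY, 2075 with acrolein and 2132 with NAC + CY. All 3 treated arrays were below NS, with log2 ratios of -0.37, -0.33 and -0.29. With acrolein the Z-score of this probe was -2.45, the only one past 2 in size outside *Pik3ca*, but the ratio of 0.80 missed the criterion. The other probes gave -0.11 and -0.01 with acrolein and -0.46 and -0.52 with CY.

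*Mtor*, the growth-controlling kinase of both mTOR complexes, was read by 2 probes that went opposite ways. The probe in the main transcript gave 302 on NS, 227 with CY, 321 with acrolein and 293 with NAC + CY, a log2 ratio of -0.41 with CY and -0.04 with NAC + CY. The probe made for a second transcript gave 111, 139, 106 and 181. Its log2 ratios were 0.32 with CY and 0.71 with NAC + CY, so the direction for this gene depended on the probe and neither probe met the criteria.

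*Mapk14*, the gene of p38 alpha, was slightly lower on both arrays of CY-treated hearts by its brighter probe. That probe gave 3110 on NS, 2529 with CY, 3022 with acrolein and 2245 with NAC + CY, with log2 ratios to NS of -0.30, -0.04 and -0.47. The second probe was dim, at 18.6, 28.7, 16.5 and 16.3, and was higher with CY (0.63, Z-score 1.07). The probes disagreed on the sign with CY and shared it with NAC + CY.

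*Igf1*, the ligand, was close to level in heart on all arrays. Its brightest probe gave 478 on NS, 497 with CY, 462 with acrolein and 432 with NAC + CY, with log2 ratios to NS of 0.06, -0.05 and -0.15. Its second probe gave -0.35, -0.11 and -0.22. No Z-score of either probe passed 0.68 in size in any comparison.

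*Igf1r*, the receptor, was lower on both arrays of CY-treated hearts by both of its measured probes, and was not called. The brightest probe, shown above, gave 371 on NS, 235 with CY, 351 with acrolein and 248 with NAC + CY. The second gave 183, 107.1, 170.0 and 103. In both probes the NS and acrolein values lay together and the CY and NAC + CY values lay together. The log2 ratios with CY were -0.66 and -0.77 (Z-scores -0.98 and -1.18), and with NAC + CY -0.58 and -0.83 (Z-scores -1.42 and -1.27). The signal of these probes is in a range where the window SD with CY was 0.65 and 0.62, so a difference of this size was common among other probes. The genes most like *Igf1r* over the 4 arrays were *Patz1* (distance 0.03), *Nhej1* (0.03) and Gm38733 (0.03), with CY log2 ratios of -0.66, -0.71 and -0.67.

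**Figure D3:**
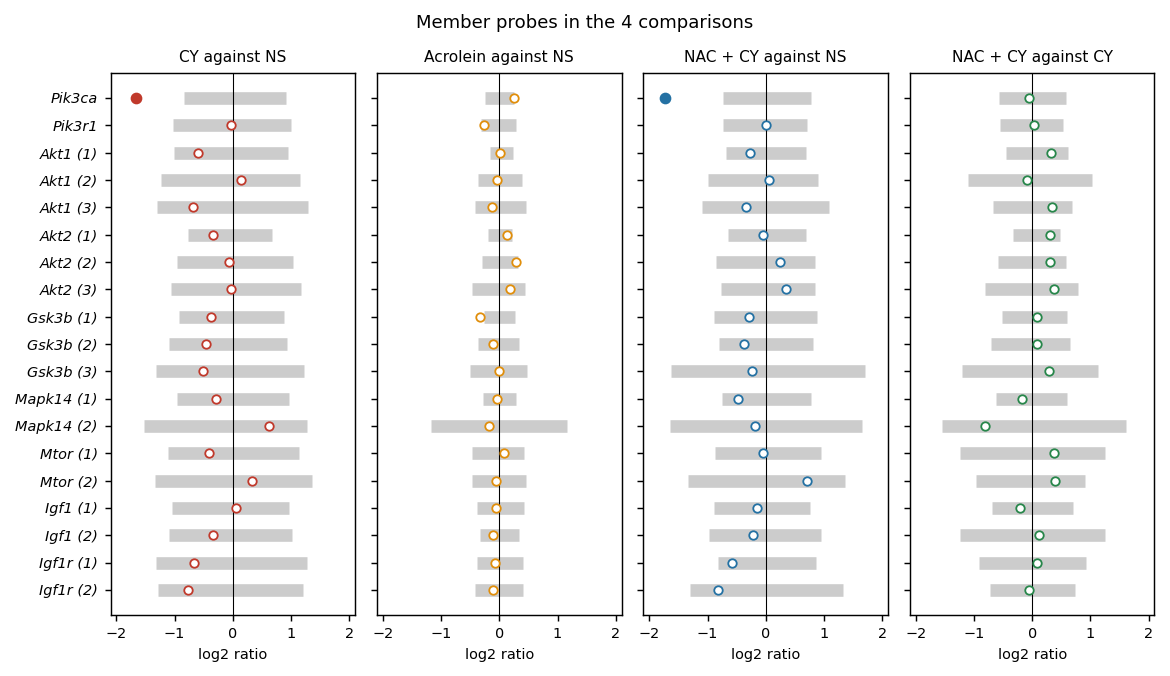
Log2 ratio (horizontal axes) of the 19 P-flagged probes of the 9 genes in the 4 comparisons, with probes of a gene numbered in order of signal where there are several. Filled points were called and open points were not, and grey bars span 2 SD on either side of the mean of the 200 probes nearest in signal; *Pik3ca* lies outside its bar with CY and with NAC + CY, and the other points lie inside or at the edge of theirs, apart from the first *Gsk3b* probe with acrolein.

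Over the 9 genes, 8 were below NS on the CY array and 8 on the NAC + CY array, with medians of -0.37 and -0.27 where the medians of all genes were -0.02 and -0.01. With the mean of all probes of a gene in place of the brightest, 8 and 6 were below NS and the medians were -0.15 and -0.18. With acrolein 5 were below NS, with a median of -0.04 where that of all genes was 0.01. Between NAC + CY and CY 6 were higher, with a median of 0.08 beside 0.02. No gene of the 9 was called with acrolein or between NAC + CY and CY, where 2.37% and 4.36% of all genes were called. The 3 comparisons with NS share the NS array. Without *Pik3ca*, the 18 remaining probes ranged from -0.77 to 0.63 with CY, from -0.33 to 0.29 with acrolein and from -0.83 to 0.71 with NAC + CY. Repeated spots on an array had an SD of 0.056 to 0.064 log2 units, which covers spot noise within an array only.

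Around these genes, 159 genes of the same pathways were placed in 9 lists, and 156 were measured in at least 1 comparison. With CY 13 of 153 were called higher and 6 lower (12.4%, beside 6.21% of all genes), with acrolein 2 of 155 higher and 1 lower (1.94% beside 2.37%), and with NAC + CY 6 of 156 higher and 1 lower (4.49% beside 5.28%). Between NAC + CY and CY 4 were higher and 9 lower (8.33% beside 4.36%). No brightest probe of these genes held the GAAGAAGAAGAA motif.

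The list of IGF ligands, binding proteins and their regulators held 7 of the 19 genes called with CY. Of the 10 measured, 6 were higher and 1 was lower (70.0%, beside 6.21% of all genes), with a median log2 ratio of 1.32. *Igf2*, the other IGF ligand, gave 627 on NS, 1909 with CY, 596 with acrolein and 573 with NAC + CY. *Igfbp3*, which encodes a major carrier of IGF in blood, gave 1173, 3764, 1013 and 1448. The CY array was the highest for both, at log2 ratios of 1.61 and 1.68, and the other 3 arrays lay close together. *Igfbp4*, *Igfbp5* and *Igfbp6*, further binding protein genes named here after their values were seen, were 2.21-fold, 2.82-fold and 2.93-fold higher with CY. For *Igfbp4* 1 of 2 probes was called higher with CY (Z-score 2.08), and for *Igfbp5* 2 of 2. *Stc1*, which encodes stanniocalcin, an inhibitor of a protease that releases IGF, was not well above background on NS and was at least 4-fold higher with CY, a bound set by the dimmest signal well above background. *Igfals*, which encodes the subunit that holds the circulating IGF complex together, went the other way, from 84.8 on NS to 16.7 on CY, with 95.7 on acrolein and 82.3 on NAC + CY (log2 ratio -2.35 with CY). Its 1 P-flagged probe was well above background on all 4 arrays, but the CY value was near the dimmest such signals. The *Igfals* ratios of CY to NS and of NAC + CY to CY both rest on that value.

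Between NAC + CY and CY, *Igf2* (-1.74), *Igfbp5* (-1.72), *Igfbp6* (-1.52), *Igfbp3* (-1.38) and *Igfbp4* (-0.83) were called lower and *Igfals* (2.31) higher. On the NAC + CY array none of these 6 was called against NS. *Stc1* gave 16.2 on NS, 65.9 with CY, 21.9 with acrolein and 37.3 with NAC + CY, so that its NAC + CY value lay between those of NS and CY. It was at least 2.26-fold above NS there with a log2 ratio of -0.82 to CY, and was called in neither of those comparisons. With acrolein *Igfbp5* was called lower (log2 ratio -0.65, 1 of its 2 probes), and *Igfbp6* had -0.56 with a Z-score of -3.78 and missed the ratio criterion. The same arrays differed in mesothelium markers, genes of the cell layer that covers the heart. With CY 9 of 10 were higher (summed signal 2.00 log2 units above NS), led by *Dmkn* (4.47), *Sfrp5* (3.52) and *Upk1b* (2.30). With acrolein 8 of 10 were lower and 1 was higher (-0.77), and between NAC + CY and CY 9 of 10 were lower (-1.96). All 10 were well above background on every array. Over all genes, 6.21% were called with CY, 2.37% with acrolein, 5.28% with NAC + CY and 4.36% between NAC + CY and CY. Of the atrial markers 7 of 7 were higher with CY (summed signal 1.41 log2 units above NS), 6 of 7 were lower between NAC + CY and CY (-0.72) and 5 of 6 were still higher with NAC + CY than on NS (0.69). Of the platelet markers 6 of 7 were higher with CY (1.41) and 6 of 7 lower between NAC + CY and CY (-1.89). With acrolein none of 6 atrial and none of 5 platelet markers was called. Of 9 fibroblast markers 1 was called higher with CY (summed signal 0.65 log2 units above NS), and 5 had log2 ratios above 0 and 4 below. None of the 9 was called with acrolein, and 3 were called lower with NAC + CY. Between NAC + CY and CY 5 of the 9 were called lower (-0.52). The part of the mesothelium, atrial, platelet and fibroblast markers in the values of the IGF ligand and binding protein genes was not tested.

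**Figure D4:**
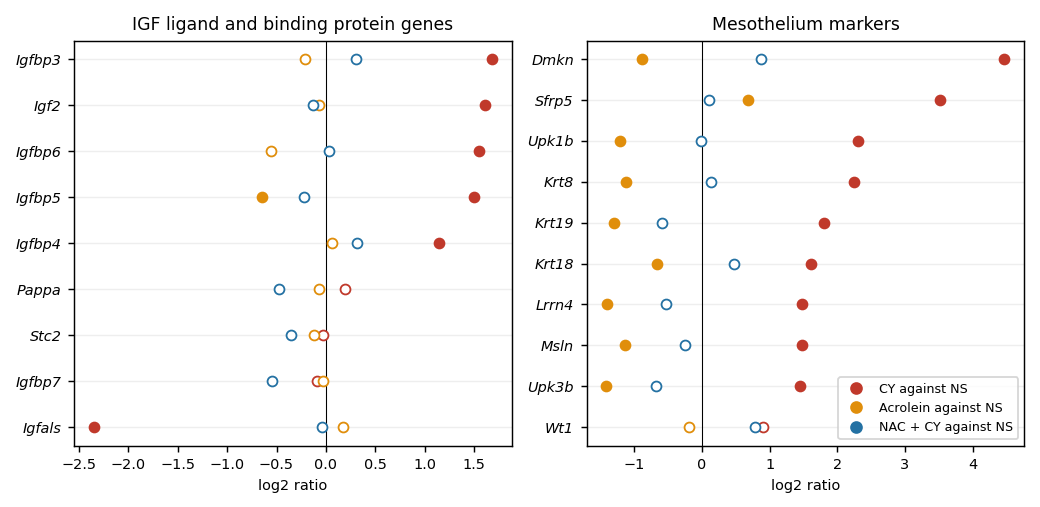
Log2 ratios to NS (horizontal axes) with CY, acrolein and NAC + CY of the IGF ligand and binding protein genes (left) and the mesothelium markers (right) that were well above background on all 4 arrays, 1 point per gene and comparison, filled where called. *Igf2*, *Igfbp3*, *Igfbp4*, *Igfbp5* and *Igfbp6* lie between 1.14 and 1.68 with CY and near 0 with NAC + CY, and most mesothelium markers are right of 0 with CY and left of it with acrolein.

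*Igfbp1*, a binding protein gene of liver, was well above background on the NAC + CY array alone. Its normalised signal was 11.4 on NS, 12.0 with CY, 7.42 with acrolein and 103 with NAC + CY, at least 6.26-fold higher than NS and at least 8.03-fold higher than CY. On that array 9 of 13 hepatocyte markers were called higher than NS (summed signal 1.76 log2 units above NS), where 5.28% of all genes were called. *Alb*, the albumin gene, was at least 229-fold and *Fgg*, a fibrinogen gene, at least 51.1-fold higher, while both were not well above background on the other 3 arrays. With CY 3 of 5 measured hepatocyte markers were also called higher than NS (summed signal 1.35 log2 units above NS), where 6.21% of all genes were called. *Igfbp1* was not well above background on the CY array. With acrolein none of 5 was called. The part of the hepatocyte markers in the *Igfbp1* value was not tested.

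Upstream of *Igf1*, 7 growth hormone signalling genes were measured. With CY 1 was called higher and 2 lower (42.9%, beside 6.21% of all genes), and 4 were not called. With acrolein and with NAC + CY 1 of the 7 was called, higher in each (14.3%, beside 2.37% and 5.28% of all genes). *Ghr*, the growth hormone receptor gene, gave 2948 on NS, 1500 with CY, 3154 with acrolein and 1771 with NAC + CY, and was called lower with CY by 2 of its 4 probes (log2 ratio -0.97). *Cish*, a feedback inhibitor gene of this receptor, was also called lower with CY (-1.09). *Socs3*, a feedback inhibitor gene of cytokine and growth hormone signalling, was the only gene of the 9 lists called higher in all 3 comparisons with NS. It gave 352, 967, 747 and 1222 on NS, CY, acrolein and NAC + CY (log2 ratios 1.46, 1.09 and 1.80), so all treated arrays lay above NS.

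Of 13 receptor and adaptor genes none was called with CY, acrolein or NAC + CY, where 6.21%, 2.37% and 5.28% of all genes were called. The largest log2 ratios with CY were those of *Grb10*, an adaptor that dampens insulin receptor signalling (-0.83), and *Insr*, the insulin receptor gene (-0.66). With acrolein *Irs1*, which encodes the main docking protein of the receptors, had 0.53 with a Z-score of 4.52 and missed the ratio criterion. *Irs2*, its close relative, gave 597 on NS, 564 with CY, 584 with acrolein and 954 with NAC + CY and was called higher against CY (0.76).

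Among the other PI3K subunits and the lipid phosphatases, 1 of 16 was called with CY (6.25%, level with the 6.21% of all genes). This was *Inpp4b*, whose product removes a phosphate from PI3K lipids, at 1044 on NS, 478 with CY, 1134 with acrolein and 695 with NAC + CY (log2 ratio -1.13 with CY, 2 of its 3 probes called). *Pik3r5*, a regulatory subunit gene of immune cells, was well above background on 2 arrays and was at least 2.90-fold higher with acrolein. *Pik3cg* had no P flag on any array.

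Of 19 other Akt and Gsk3 genes none was called against NS. Of all genes 6.21% were called with CY, 2.37% with acrolein and 5.28% with NAC + CY. *Trib3*, whose product binds and restrains Akt, had log2 ratios of 0.90 with CY (Z-score 1.72) and -0.68 between NAC + CY and CY, where it was called lower. Of 32 genes of the mTOR complexes and their regulators, *Rptor*, the defining subunit gene of mTOR complex 1, was the only one called. It was called with CY only (3.1% of the list, beside 6.21% of all genes). It gave 1331 on NS, 547 with CY, 1257 with acrolein and 662 with NAC + CY, and was lower on both arrays of CY-treated hearts (-1.28, called, and -1.01, Z-score -1.84).

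Of 20 FoxO factors and known targets, *Bnip3*, a gene of mitochondrial autophagy, and *Cat*, the catalase gene, were called higher with CY (1.13 and 0.94) and with NAC + CY (1.29 and 0.89). They were the only 2 of the 20 called there, where 6.21% (CY) and 5.28% (NAC + CY) of all genes were called. With acrolein none of the 20 was called, beside 2.37% of all genes. *Cat* gave 3993 on NS, 7677 with CY, 4175 with acrolein and 7384 with NAC + CY. *Pdk4*, which encodes a kinase that limits glucose oxidation, was lower on NAC + CY than on CY (-1.45), and *Txnip*, an inhibitor gene of glucose uptake, likewise (-0.60, 1 of 2 probes). In that comparison *Pdk4* and *Txnip* were the only 2 of the 20 called, where 4.36% of all genes were called.

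In the p38 branch, *Map3k6*, an upstream kinase gene, was called higher with CY and NAC + CY and not with acrolein. It gave 825 on NS, 2346 with CY, 711 with acrolein and 1699 with NAC + CY (log2 ratios 1.51, -0.21 and 1.04). *Map2k6*, the gene of a kinase that directly activates p38, went the other way with CY (408, 193, 377 and 204, log2 ratio -1.08). *Map3k5*, which encodes the stress kinase ASK1, was called higher on NAC + CY than on CY by both of its probes (0.90), and 1 of the 2 was called lower with CY. Of 25 genes on this list, 1 was higher and 1 lower with CY (8.0%, beside 6.21% of all genes). Among 11 phosphatase genes that act on MAP kinases, *Dusp14* (1.81), *Dusp4* (1.44) and *Dusp5* (0.99) were higher with CY. The share called was 27.3% with CY and 18.2% with NAC + CY, beside 6.21% and 5.28% of all genes. *Dusp5* was also higher with NAC + CY (1.02) and *Dusp7* was lower there (-0.96), and *Dusp14* was lower on NAC + CY than on CY (-1.08).

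The tissue is labelled heart, and all 10 heart muscle markers were well above background on every array. Their summed signal lay within 0.06 log2 units of NS on each treated array. The brightest markers carry most of this sum, and quantile normalisation gives the brightest ranks the same values on every array. The sum therefore does not measure muscle content. By gene, 7 of 10 were below NS with CY (median -0.12), 1 with acrolein (0.07) and 6 with NAC + CY (-0.05). *Ryr2* was lower (-1.39) and *Nppa*, which stands on the atrial list too, was higher (1.05) with CY. Markers of other cells differed between arrays, where 6.21% (CY), 2.37% (acrolein) and 5.28% (NAC + CY) of all genes were called. With CY all 7 atrial markers and 6 of 7 platelet markers were higher, and 4 of 8 lymphocyte markers were lower. With acrolein 6 of 9 fat cell markers were lower. With NAC + CY 5 of 9 fat cell markers were higher and 4 of 7 lymphocyte markers lower. There 3 of 8 smooth muscle and pericyte markers were lower too. Most of these lymphocyte markers were near background on an array. Neutrophil markers were called higher than NS in 2 of 5 with CY, 3 of 5 with acrolein and 4 of 6 with NAC + CY. Of those measured, 2, 2 and 3 were not well above background on at least 1 of the 2 arrays. Endothelium markers had medians of -0.32 with CY and -0.39 with NAC + CY. The part of all these markers in the values of the 9 genes was not tested. Between 26677 and 28312 of the probes on an array were well above background, and no spot was saturated.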

How the data were processed

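Hearts of 4 conditions were measured on 1 Agilent 8-array slide, 1 array each. The authors scanned the arrays and extracted spots with Agilent Feature Extraction (10.7.1.1 in the file headers, 9.5.1.1 in the submitters' processing notes). These intensity values, as deposited, have the background subtracted and no normalisation between arrays. The authors' deposited value table, whose columns hold linear intensity values of the same arrays after quantile normalisation (each with a median of 13.9), served as an alternative. Groups came from the sample labels.

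Log2 signals of the non-control spots were quantile-normalised over the 4 arrays, as the study's methods name, and spots of a probe were averaged. The P flag on at least 1 of 2 arrays, the Z-score and the ratio follow those methods, while the window of 200 probes was chosen here. A gene stands for its brightest P-flagged probe. Genes other than the 9 were named by RefSeq accession (32994 probes), symbol (10224) or synonym (520) of assembly GRCm38.p6, and 12867 probes kept the file's name. Where 1 of the 2 arrays gave a signal near background, the fold is a bound against the lowest signal well above background. Precision is limited by the number of arrays.

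The 9 genes and all lists were chosen with earlier results of these data known. Named genes are the 9, up to 4 called genes of each list with the largest log2 ratio in size, or up to 2 where none was called, up to 3 markers of a list, and the 3 genes most like the 2 members of largest range. The procedure was tested on simulated data. Their noise was set to the window SD of acrolein against NS (median 0.22 log2 units). That SD was 0.58 for CY and 0.54 for NAC + CY against NS, so the simulation does not show how well changes are found there. A total of 12 alternatives were tried, and 1 was added after the data were seen. Python 3.11.15, numpy 2.4.6, pandas 2.3.3, matplotlib 3.10.9 and, for normexp, limma 3.58.1 in R 4.3.3 were used.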

Additional observations from a re-analysis of the deposited data

How the results depend on the processing

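*Pik3ca* was called lower with CY and with NAC + CY under all 12 alternatives, and the count of the 9 genes called changed under 1 of them. With the ratio criterion alone it was 3 with CY (*Akt1*, *Igf1r* and *Pik3ca*). With the probes that hold the GAA repeat left out, an alternative chosen after the data were seen, it was 0 with CY and 0 with NAC + CY. That count was fixed by the choice and is no check of the call. *Pik3ca* was the only gene of the 9 called, and its only probe holds the repeat. Calls on the pathway lists moved with the thresholds. At a Z-score of 3 they numbered 6 with CY, 3 with NAC + CY and 6 between NAC + CY and CY. At a ratio of 2 they numbered 8 between NAC + CY and CY. With the ratio alone they numbered 37 with CY, 6 with acrolein, 23 with NAC + CY and 20 between NAC + CY and CY. The P flag filters, windows and thresholds, 7 of the 12 alternatives, leave the log2 ratio of a gene unchanged by construction. Under the other 5, 28 of 180 log2 ratios of the 9 genes moved by more than the spot noise. Of these, 20 moved with the mean of all probes, 4 with 75th percentile scaling, 3 with normexp and 1 in the authors' value table. With the mean of all probes in place of the brightest, *Mapk14* with CY was 0.16, *Igf1* with CY -0.15, *Akt2* with NAC + CY 0.18 and *Mtor* with NAC + CY 0.33, which turned the sign of these uncalled values. Values close to 0 for *Akt1* with acrolein and *Pik3r1* with NAC + CY also changed sign under some settings. No setting moved the median of all genes by 0.1, but this is no check of the processing. The median was taken over the brightest probes, so the windows, thresholds and mean of all probes could not move it. Every other set of signals was scaled to a common level across arrays. No paired analysis was possible because each condition has 1 array. Probes near background carry only bounds, and the 4 dim probes of the 9 genes give no ratio.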
